A study of Mus musculus with 12 samples.

Results

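The 10 genes described here encode proteins with a Jumonji C (JmjC) domain: Kdm2a, Kdm2b, Kdm5a, Kdm5b, Kdm6b, Kdm7a, Phf8, Phf2, Jmjd6 and Jarid2. They were chosen by name. All 10 matched among the 21631 protein-coding genes that the mouse annotation GRCm38.p6 places on autosomes and X, the same build as mm10. Every peak that overlapped a gene's span or the 10 kb on either side of it (its window) was taken. The peaks are those of HIF1A, the subunit of HIF-1 that oxygen destabilises, and of its partner ARNT, mapped by chromatin immunoprecipitation and sequencing (ChIP-seq). The cells were N1E115, a mouse neuroblastoma line labelled NOS1+ (NOS1 is the neuronal nitric oxide synthase). They were kept for 3 days at 4% or at 20% O2, with 5% CO2 in both, and no other agent or allele is named. The 4 groups were HIF1A at 4% O2, ARNT at 4% O2, HIF1A at 20% O2 and ARNT at 20% O2, with 2 samples and so 2 peak lists each. The 4 input samples have no list of their own. Nothing in the labels ties the replicates to separate cultures, so the p-values below speak to sample-to-sample spread alone, part or all of which may be technical. Peak lists hold no expression, so the labelled cell type could not be checked against marker genes.

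JmjC enzymes remove methyl groups from histone lysines, or hydroxylate other residues, in a reaction that uses molecular oxygen, iron and 2-oxoglutarate. KDM2 enzymes act on methylated H3K36, KDM5 enzymes on H3K4 and KDM6B on H3K27, and KDM7A, PHF8 and PHF2 act mainly on H3K9. JMJD6 is a hydroxylase, and JARID2 has lost catalytic activity and binds Polycomb repressive complex 2. Several JmjC demethylase genes are known HIF-1 targets in other cells. HIF-1 binds DNA at a short core, ACGTG or GCGTG.

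Lists differed widely in length. For HIF1A at 4% O2, replicate 1 had 42701 entries and replicate 2 had 13655, against 5393 and 13386 at 20% O2. For ARNT at 4% O2 they had 24942 and 9920, against 7252 and 1808 at 20% O2. Both HIF1A replicate 2 lists give single positions of 1 bp, read here as summits, and the other 6 give intervals. Per the file headers all 4 replicate 1 samples shared a sequencing lane, while the ARNT replicate 2 samples of 4% and 20% O2 came from different flow cells. Each peak carries the authors' own score, whose scale is not named. It is used only as a percentile of the list it comes from, where the top peak has 100. A longer list reaches weaker peaks, so percentiles in different lists show rank and not a change in binding. The lists hold no read counts, so depth is unknown and no interval can be given for a peak.

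Nearly all of these genes had a hypoxic HIF-1 region in their window. A region is a stretch where peaks of both replicates met. ARNT at 4% O2 had a region at all 10 genes, against 27.7% of all protein-coding genes. HIF1A at 4% O2 had one at 9 of 10, all but Kdm5a, against 34.2%. At 20% O2 HIF1A had a region at 3 of 10 (Kdm2b, Kdm6b and Phf8, against 10.1% of all genes) and ARNT at 1 of 10 (Kdm6b, against 7.11%). Peaks of all lists in the 10 windows merged into 58 sites, of which 42 touched the gene itself and 22 came from a single list. Of the 58 sites, 34 had no peak at 20% O2, and 2, in Kdm2a and Jarid2, had a peak at 20% O2 alone, each in 1 list. The count of HIF1A genes at 20% O2 rests on replicate 1. Replicate 2 alone had a peak at 9 of 10 windows, against 31.7% of all genes, and replicate 1 alone at 3 of 10, against 11.3%. For ARNT at 20% O2 replicate 1 alone had a peak at 5 of 10 (22.3% of all genes), and replicate 2, the shortest list, at 1 of 10 (7.6%). The windows were long, with a median of 96588.5 bp against 37329 bp for all genes, and a long window holds more peaks. Within 1 kb of either gene end, a rule that does not grow with length and was added after the data were seen, the genes were 5 of 10 for HIF1A (17.5% of all genes) and 6 of 10 for ARNT (15.2%) at 4% O2, and 1 of 10 (2.02%) and 0 of 10 (3.05%) at 20% O2. The 10 genes were named with earlier results of these data known, so their counts stand beside the background without a test.

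**Figure D1:**
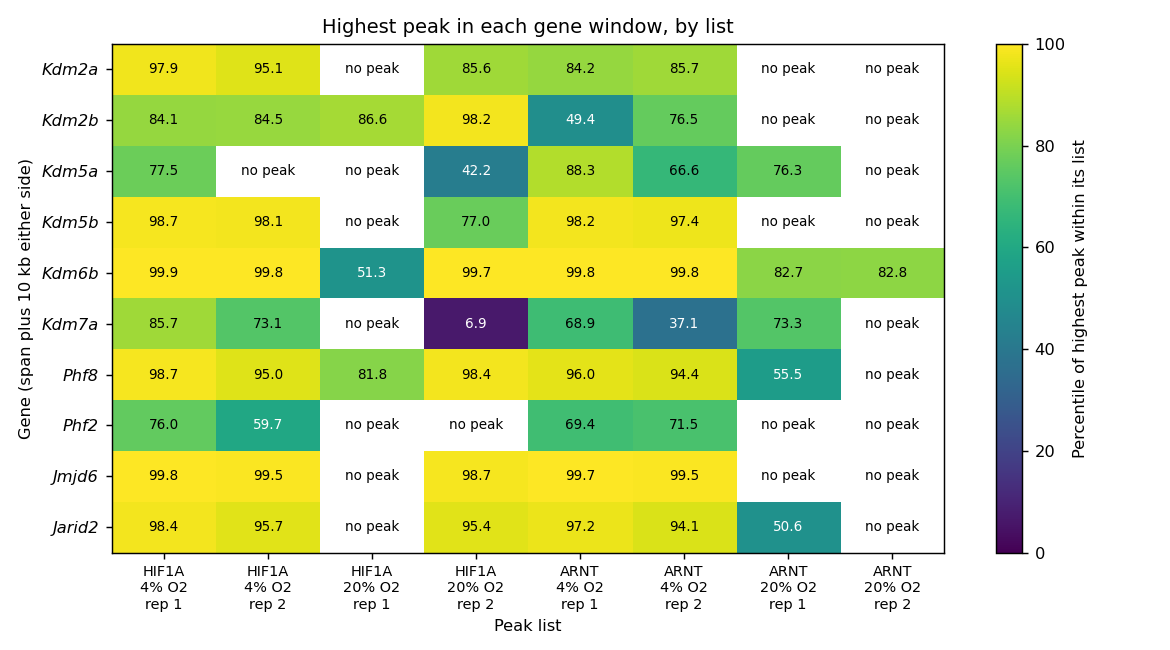
Percentile, within its own list, of the highest peak in each gene window (rows) in each of the 8 peak lists (columns); white cells have no peak. Kdm6b is the one gene with a peak in every list, Jmjd6 and Kdm6b hold peaks above the 99th percentile in all 4 lists at 4% O2, and most cells for ARNT at 20% O2 are empty.

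Kdm6b, the gene for an H3K27 demethylase (gene ID 216850, chromosome 11, 69398508 to 69420367), held, in each of the 4 lists at 4% O2, the highest-ranked peak of the 10 genes and the most peaks. At 20% O2 this did not hold in every list: in HIF1A replicate 1 Kdm2b (86.6) and Phf8 (81.8) ranked above Kdm6b (51.3), and in ARNT replicate 1 Jarid2 had 2 peaks and Kdm6b 1. HIF1A had 15 and 8 peaks in its window at 4% O2, against 1 and 6 at 20% O2. ARNT had 13 and 5 at 4% O2, against 1 and 1 at 20% O2. For both antibodies each list at 4% O2 thus held more peaks than either list at 20% O2, although the window, at 41860 bp, was the second shortest of the 10. The strongest site (69418552 to 69419202) lay inside the gene, where Gm51903 also overlaps it, with its centre 1490 bp from the higher-coordinate end of Kdm6b. At 4% O2 its HIF1A percentiles were 99.9 and 99.8, and its ARNT percentiles 99.8 and 99.8. At 20% O2 it was listed for HIF1A replicate 2 at 99.7 and in none of the other 3 lists. HIF1A summits there, in replicate 2, lay 15 bp apart at 4% and 20% O2.

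The other Kdm6b sites did not share one pattern. Peaks of all 8 lists merged into 17 sites, of which 8 had a HIF1A region and 5 an ARNT region at 4% O2. The site at 69417498 to 69417799 was the one with peaks in all 4 HIF1A lists, at percentiles of 97.0 and 89.9 at 4% O2 and 51.3 and 81.1 at 20% O2. ARNT was listed there at 79.3 and 68.4 at 4% O2 and not at 20% O2. A site inside the gene (69414428 to 69414704), with its centre 5801 bp from the higher-coordinate end, was different for ARNT. ARNT had a peak there in 1 list at 4% O2, at 94.6, and in both lists at 20% O2, at 82.7 and 82.8. Those were the ARNT peaks of the Kdm6b window at 20% O2. HIF1A was listed at that site at 73.8 and 15.2 at 4% O2, and at 69.1 in replicate 2 alone at 20% O2. Beyond the lower end of the gene, a site over Cyb5d1 and Naa38 (69395421 to 69395846) had peaks in the 4 lists at 4% O2 alone.

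**Figure D2:**
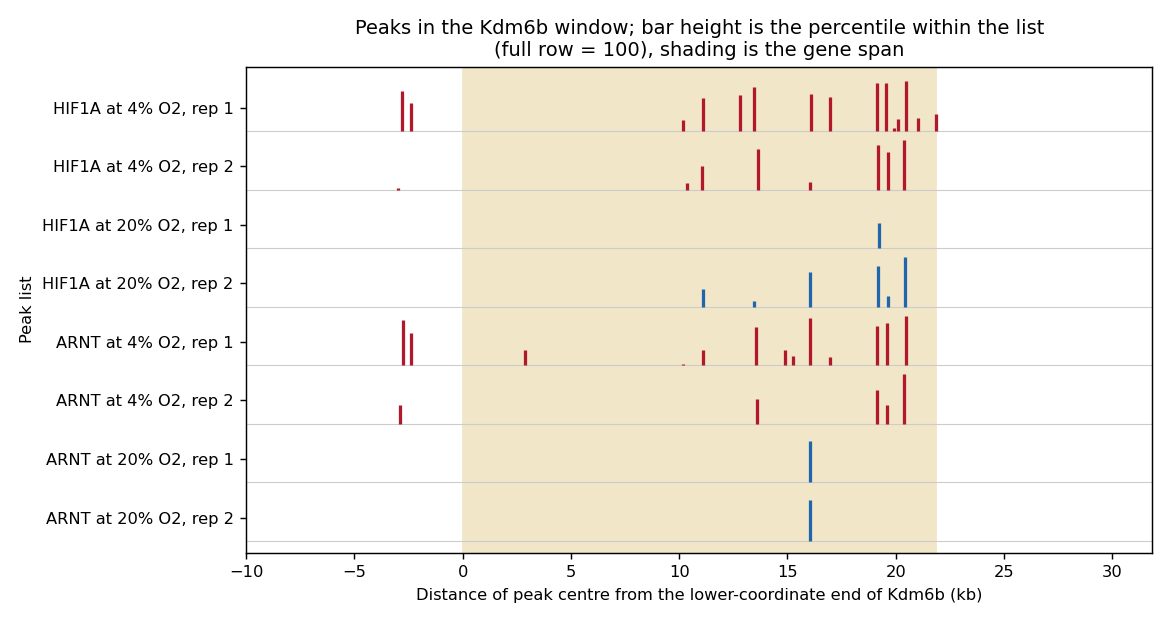
Position of every peak in the Kdm6b window, as distance in kb from the lower-coordinate end of the gene (x axis), for each of the 8 lists (rows); bar height is the percentile within the list and shading marks the gene span. Peaks crowd toward the higher-coordinate end at 4% O2, and the ARNT peaks at 20% O2 lie at 1 position inside the gene, away from the strongest site.

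Jmjd6, which encodes a nuclear JmjC hydroxylase (gene ID 107817, chromosome 11, 116837432 to 116843767), ranked next. HIF1A had 8 and 2 peaks at 4% O2, against 0 and 3 at 20% O2, so the HIF1A lists overlapped between oxygen levels. ARNT had 6 and 3 at 4% O2, against 0 and 0 at 20% O2, with no overlap. One broad site (116842193 to 116843850) covered the start of the gene, with its centre 428 bp into the gene from the annotated start site. At 4% O2 its highest HIF1A peaks were at percentiles of 99.8 and 99.5, and its highest ARNT peaks at 99.7 and 99.5. At 20% O2 HIF1A replicate 2 listed it at 98.7, and the summits of the 2 oxygen levels lay 11 bp apart. Mettl23 overlaps the same site. The other 2 regions of the window lay over Srsf2 and Mfsd11, the highest with its centre 32 bp from the start of Mfsd11, both closer to those genes' starts than to that of Jmjd6.

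The KDM5 genes, whose products remove H3K4 methylation, differed from each other. At Kdm5b (gene ID 75605, chromosome 1, 134560178 to 134632878) the main site lay 3759 bp before the start site, over Mgat4e (134555580 to 134557258). Both antibodies ranked it high at 4% O2, HIF1A at 98.7 and 98.1 and ARNT at 98.2 and 97.4. At 20% O2 HIF1A replicate 2 listed it at 77.0, and the other lists did not. A weaker site at the Kdm5b start was called in replicate 1 of each antibody at 4% O2 and in no other list. Kdm5a (gene ID 214899, chromosome 6, 120364099 to 120444574) was the gene without a HIF1A region, since HIF1A had 4 and 0 peaks there at 4% O2, against 0 and 2 at 20% O2. ARNT had 2 and 3 at 4% O2, against 1 and 0 at 20% O2. Its ARNT regions at 4% O2 were 2. One (120363969 to 120364169) lay at the lower end of Kdm5a and over the neighbour Ccdc77. Its centre was 300 bp from a start of Ccdc77. The other (120357327 to 120357575), with its centre 18 bp from another Ccdc77 start, was also listed for ARNT at 20% O2 in replicate 1.

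The KDM2 genes, whose products bind unmethylated CpG islands and act on H3K36, each had a co-bound region near the higher-coordinate end. At Kdm2a (gene ID 225876, chromosome 19, 4316144 to 4398721) the site at 4396968 to 4397558 had HIF1A percentiles of 97.9 and 95.1 and ARNT percentiles of 84.2 and 85.7 at 4% O2. HIF1A replicate 2 was the one list at 20% O2 with a peak there, at 85.6. 9430078G10Rik overlaps the same site, and its start lay 1379 bp from the site's centre. Kdm2b (gene ID 30841, chromosome 5, 122870664 to 122989270) had its co-bound region at a start site (122988956 to 122989786). The site's centre lay 272 bp before the Kdm2b start and 17 bp from the start of the overlapping noncoding gene A930024E05Rik. HIF1A was at 80.2 and 84.5 there and ARNT at 49.4 and 76.5 at 4% O2, and all 4 lists at 20% O2 lacked it. A separate site 5556 bp before the Kdm2b start, inside A930024E05Rik (122994554 to 122994757), had HIF1A peaks in every HIF1A list and no ARNT peak in any. HIF1A percentiles there were 84.1 and 64.6 at 4% O2 and 86.6 and 98.2 at 20% O2. The replicate 2 summits lay 3 bp apart.

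Among the PHF and KDM7 genes, whose products read H3K4 methylation and remove repressive marks, Phf8 stood at higher percentiles than Kdm7a and Phf2 in all 4 lists at 4% O2. At the Phf8 start (gene ID 320595, chromosome X, 151520641 to 151633859), the site at 151520007 to 151520851 had HIF1A peaks in both lists at both oxygen levels. Percentiles were 98.7 and 95.0 at 4% O2 and 59.2 and 98.4 at 20% O2. ARNT was at 96.0 and 94.4 there at 4% O2, and neither ARNT list had it at 20% O2. A site 5458 bp upstream of Phf8 was listed for HIF1A at 51.3 in replicate 1 and not in replicate 2 at 4% O2, against 81.8 and 83.8 at 20% O2. ARNT replicate 1 listed the same site at 7.9 at 4% O2 and at 55.5 at 20% O2. Kdm7a (gene ID 338523, chromosome 6, 39136620 to 39206773) had a start-site region (39206690 to 39207051) listed at 4% O2 alone, by HIF1A at 85.7 and 73.1 and by ARNT at 41.5 and 37.1. A second Kdm7a site, 1577 bp inside the gene (39205096 to 39205296), was called by ARNT in replicate 1 at both oxygen levels, at 68.9 at 4% O2 and 73.3 at 20% O2. Phf2 (gene ID 18676, chromosome 13, 48801750 to 48870885) had a single site, 7918 bp before its start (48878691 to 48878916). All 4 lists at 4% O2 had that site, HIF1A at 76.0 and 59.7 and ARNT at 69.4 and 71.5, and none at 20% O2.

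Jarid2, the Polycomb partner (gene ID 16468, chromosome 13, 44730774 to 44921643), had the longest window and sites spread along it. HIF1A had 8 and 3 peaks at 4% O2, against 0 and 6 at 20% O2. ARNT had 7 and 2 at 4% O2, against 2 and 0 at 20% O2. The start-site region (44730275 to 44730940) ranked highest, with HIF1A at 98.4 and 95.7 and ARNT at 97.2 and 94.1 at 4% O2. HIF1A replicate 2 listed it at 62.5 at 20% O2, and the ARNT lists did not. A region 2653 bp from the nearest annotated Jarid2 start (44733801 to 44734047) was the other co-bound one, with HIF1A at 89.9 and 61.4 and ARNT at 71.7 and 67.2 at 4% O2, and HIF1A replicate 2 at 71.0 at 20% O2. Exon coordinates were not used here, so no site is called exonic or intronic. Deep inside the gene a site at 44839834 to 44840195 was called in single lists, HIF1A at 78.2 and ARNT at 85.5 in replicate 1 at 4% O2, and HIF1A at 95.4 in replicate 2 and ARNT at 50.6 in replicate 1 at 20% O2.

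**Figure D3:**
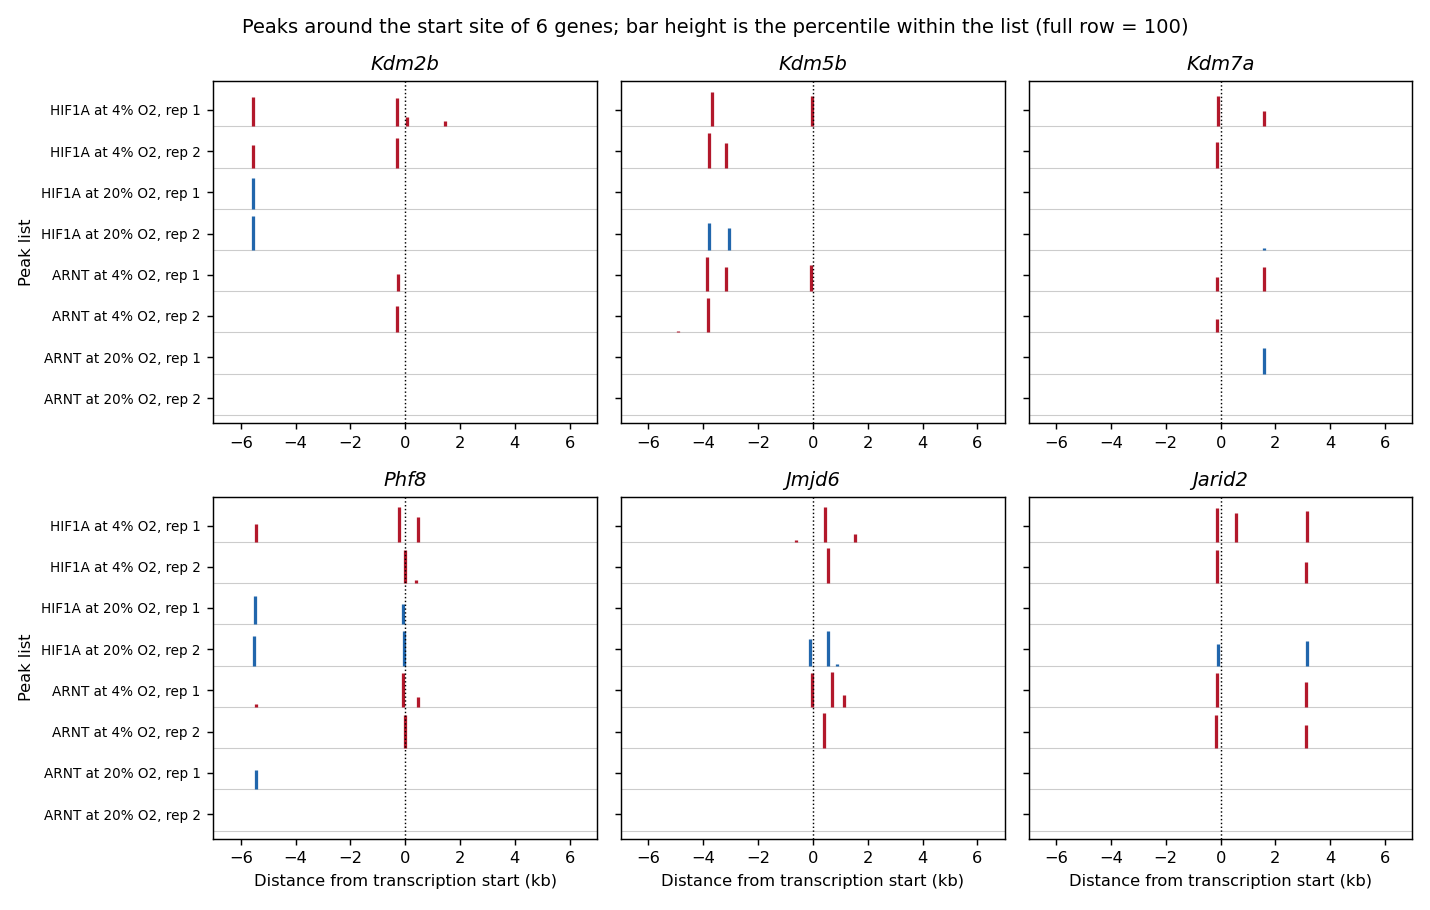
Peaks within 7 kb of the annotated transcription start (dotted line) of 6 of the genes, in kb along the direction of transcription, for each of the 8 lists (rows); bar height is the percentile within the list. Start-site peaks at Kdm2b, Kdm7a, Phf8 and Jarid2 appear in all 4 lists at 4% O2 (as at Jmjd6, just inside the gene), while Kdm5b has its strongest site 3759 bp upstream and Kdm2b and Phf8 have a further site 5556 and 5458 bp upstream, with HIF1A peaks at both genes and ARNT replicate 1 peaks at Phf8.

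Promoter sequences are shown because start-site regions at 5 of these genes covered the HIF-1 core letters. RefSeq promoter windows (GRCm38.p6), 250 bases before to 50 after a start, were found for 7 of the 10 genes. Kdm2a, Kdm5a and Kdm6b had no entry. The stretches below run 5′ to 3′ on the gene's strand, with ACGTG and its reverse complement CACGT, and GCGTG and its reverse complement CACGC, in capitals. Positions are counted back from the start site.
Phf8 (chrX:151520602-151520659, plus strand): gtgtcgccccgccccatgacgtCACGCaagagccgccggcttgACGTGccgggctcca
Jarid2 (chr13:44730614-44730733, plus strand): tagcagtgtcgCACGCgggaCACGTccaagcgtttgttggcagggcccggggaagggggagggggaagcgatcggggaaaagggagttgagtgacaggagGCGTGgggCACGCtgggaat
Kdm7a (chr6:39206894-39207023, minus strand): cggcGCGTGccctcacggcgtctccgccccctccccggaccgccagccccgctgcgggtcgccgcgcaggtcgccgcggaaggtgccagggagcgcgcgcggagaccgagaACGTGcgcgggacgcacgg
Kdm2b (chr5:122989271-122989349, minus strand): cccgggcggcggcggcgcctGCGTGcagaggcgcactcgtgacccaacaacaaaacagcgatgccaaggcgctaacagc
Kdm5b (chr1:134560118-134560177, plus strand): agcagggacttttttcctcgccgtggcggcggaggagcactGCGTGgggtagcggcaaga
Jmjd6 (chr11:116843660-116843689, minus strand): aggccgggctcgCACGTaggggagtccagg

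At Phf8 the ACGTG match began 27 bases before the start, with its middle base 3 bp from the HIF1A summit of 4% O2 and 6 bp from that of 20% O2. The Jarid2 window of the start used above held 6 matches. Its CACGT match, 140 bases before the start, lay 23 bp from the summit of 4% O2 and 36 bp from that of 20% O2. The window of another Jarid2 start held 2 matches and overlapped no HIF1A region of 4% O2. At Kdm7a the ACGTG match lay 15 bp from the summit of 4% O2, and the nearest summit of 20% O2 was 1714 bp away. The Kdm2b match printed above lay 77 bp from the summit of 4% O2. Windows of other Kdm2b starts held matches too, and none of them overlapped a HIF1A region of 4% O2. At Jmjd6 the HIF1A summit of 4% O2 lay inside the gene, 559 bp from the nearer of 2 matches, a GCGTG 11 bases before the start. The CACGT printed above, 228 bases before the start, lay 776 bp from that summit. A weaker summit of 20% O2 (percentile 75.6) lay 82 bp from the GCGTG. The highest summit of 20% O2 (98.7) lay 11 bp from that of 4% O2. Both matches were inside intervals of 3 lists, all at 4% O2. Kdm5b had 2 matches: the GCGTG printed above, 19 bases before the start, was inside the replicate 1 intervals of HIF1A and ARNT at 4% O2, and an ACGTG 229 bases before the start was inside no interval. Phf2, which had no peak at its start, had none of the 4 spellings in its window. Such letters are common: 43.8% of all 32851 promoter windows held at least 1 of the 4 spellings, on either strand. The share was 82.8% of the 3354 windows that overlapped a HIF1A region of 4% O2, and 39.3% of those that did not. ACGTG or CACGT, which overlap where the letters read CACGTG, occurred in 19.6% of all windows and in 47.1% of those with a HIF1A region at 4% O2. A match in these genes is a description of letters and not a measured contact.

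Peak numbers per window were higher at 4% than at 20% O2 on average in all 10 genes, and in 56.3% of all genes. This depended on list length. Each list was then limited to its 1808 highest peaks, the length of the shortest. The difference was positive at 6 of the 10 genes (9.56% of all genes) and 0 at Kdm7a and Phf2. It was negative at Kdm2b (-0.50) and Kdm5a (-0.25), and in 10.5% of all genes. The median of the 10 was 0.625 peaks, against 0 in all genes. With the lists as deposited, the mean difference over both antibodies had a median of 1.625 peaks per list in the 10 genes and 0.25 in all genes. Kdm6b had the largest difference of the 10, 8 peaks, followed by Jmjd6 with 4 and Jarid2 with 3. The smallest was 1, at Phf8 and Phf2. These sizes rest on single lists: replicate 1 alone gave 13 peaks at Kdm6b and 7 at Jmjd6, replicate 2 alone gave 3 and 1, and with lists of equal length Kdm6b had 1.25 and Jmjd6 and Kdm5b had 1 each. Oxygen labels were exchanged within each antibody in an exact permutation test (two-sided), whose 36 arrangements cannot give less than p = 0.0556. Kdm2b, Kdm6b and Phf2 reached that value, as did 10.3% of all genes. After Benjamini-Hochberg adjustment over all genes the exact permutation p was 0.541 for each of the 3, and no gene of the 21631 passed 0.05, adjusted or not. ARNT counts did not overlap between oxygen levels in 7 of the 10 genes, all higher at 4% O2 (21.2% of all genes). HIF1A counts did not overlap in 3 of 10, again higher at 4% O2 (17.1% of all genes). In none of the 10 did both lists at 4% O2 hold fewer peaks than either at 20% O2, against 0.102% of all genes for HIF1A and 0.0971% for ARNT. Within the lane shared by all replicate 1 samples the median difference was 2.50 peaks, and for replicate 2 it was 1. Jarid2 changed direction, with a difference of 6.50 for replicate 1 and -0.50 for replicate 2, where HIF1A had 3 peaks at 4% O2 and 6 at 20% O2.

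**Figure D4:**
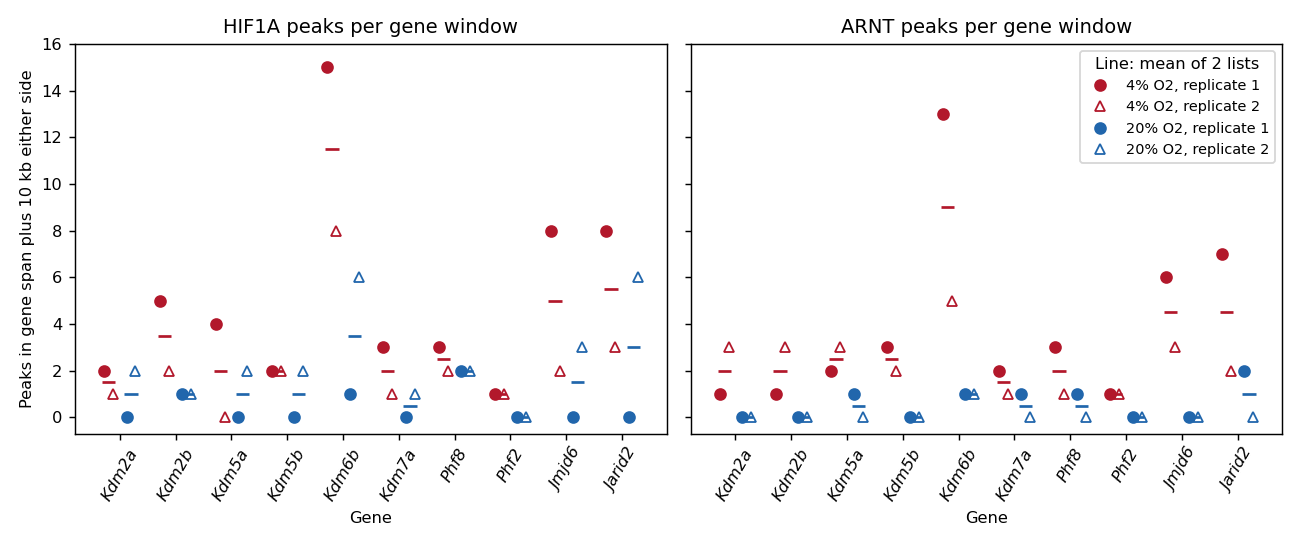
Number of HIF1A peaks (left) and ARNT peaks (right) in each gene window, with 1 point per peak list and a line at the mean of the 2 lists of a group. The ARNT points at 4% O2 lie above those at 20% O2 in 7 genes and touch or overlap in the rest, while the HIF1A points of replicate 2 at 20% O2 reach at least the lower of those at 4% O2 in 7 genes.

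Of the reproducible regions at 4% O2, most were shared: 15 of 20 HIF1A regions and 15 of 18 ARNT regions. A HIF1A region that overlapped an ARNT region was found at 9 of the 10 genes, against 23.0% of all genes, and these are the 15 regions. Kdm6b held 5 of them, Jmjd6 and Jarid2 2 each, and Kdm2a, Kdm2b, Kdm5b, Kdm7a, Phf8 and Phf2 1 each. Lists at 20% O2 differ in length, so their counts at these 15 regions are read only against the genome-wide share of the same list. Neither ARNT list had a peak at any of the 15, against 21.8% (replicate 1) and 7.04% (replicate 2) of the 5764 such regions genome-wide. HIF1A replicate 2 had a peak at 11 of the 15, against 58.0% genome-wide, and replicate 1 at 2 of the 15, against 13.4%. One of those 11 peaks lay just past the edge of the Jmjd6 window. A region at 4% O2 without any peak of its antibody at 20% O2 occurred at all 10 genes for either antibody (30.5% of all genes), at all 10 for ARNT (22.2%) and at 5 for HIF1A (21.4%): Kdm2b, Kdm6b, Kdm7a, Phf8 and Phf2. Of the 22 sites with a HIF1A replicate 2 peak at 20% O2, 14 also had one in replicate 2 at 4% O2 and 8 did not. The summit distances given for single genes come from those 14 sites, and entries had to lie close to be merged into a site.

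Other genes of the JmjC family gave lower shares. Their windows were also shorter, with a median of 57975 bp against 96588.5 bp for the 10 genes. Of 19 other JmjC genes, HIF1A had a region at 6 and ARNT at 5 at 4% O2 (31.6% and 26.3%). With the lists as deposited, these shares were near those of all genes. The counts depended on single lists: one replicate alone gave 6 or 14 for HIF1A and 10 or 9 for ARNT. With lists of equal length the shares were above those of all genes. HIF1A then had a region at 4 of the 19 (6.65% of all genes) and ARNT at 4 (5.41%). Within 1 kb of either gene end each antibody had a region at 3 of the 19 (17.5% and 15.2% of all genes). The highest of the 19 genes were Kdm4b and Kdm3a, H3K9 demethylase genes, at mean HIF1A percentiles of 99.9 each, and Hr at 97.4. The split does not follow families: Kdm5c, an H3K4 demethylase gene, had a region of both antibodies at 96.5, while Kdm6a, the paralogue of Kdm6b, had 1 and 0 HIF1A peaks and 0 and 1 ARNT peaks at 4% O2, against 0 in all 4 lists at 20% O2. The difference between the 10 genes and the other JmjC genes was not tested, since the 10 were chosen with results known.

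Genes for the opposing writers and for partner complexes varied by list. H3K4 methyltransferase genes had a HIF1A region at 5 of 10 and an ARNT region at 6 of 10 at 4% O2, led by Wdr5 at 95.7, Kmt2c at 89.2 and Setd1b at 87.4. Polycomb complex 2 genes had 4 of 10 for each antibody (Eed at 86.8, Rbbp4 at 78.7, Aebp2 at 72.9, and Phf1). For the Polycomb complex 1 that KDM2B recruits to CpG islands, HIF1A had 5 of 8 and ARNT 3 of 8, with Rybp at 87.5, the corepressor Bcor at 81.2 and Skp1 at 74.1. H3K36 methyltransferase genes had 4 of 5 and 3 of 5, led by Nsd1 at 97.7, Nsd3 at 94.7 and Ash1l at 78.9. H3K9 methyltransferase genes had 5 of 6 and 3 of 6, at lower percentiles (Setdb1 at 71.6, Suv39h2 at 49.4 and Ehmt1 at 41.3). Of all genes, 34.2% had a HIF1A region and 27.7% an ARNT region at 4% O2. At 20% O2 the H3K36 list had 2 of 5 for each antibody (10.1% and 7.11% of all genes). The H3K4, H3K9 and Polycomb lists had 0 or 1 gene each there. The median window of the H3K36 list was 128544 bp, against 37329 bp for all genes. Medians of the other lists here ran from 46425 to 62348.5 bp. With such short lists these counts are descriptions only. The known HIF-1 targets Pgk1, Ankrd37 and Bnip3 had regions of both antibodies at 4% O2, at mean HIF1A percentiles of 99.8 or more. At 20% O2 Pgk1 and Ankrd37 also had regions of both antibodies, and Bnip3 had a region of neither.

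**Figure D5:**
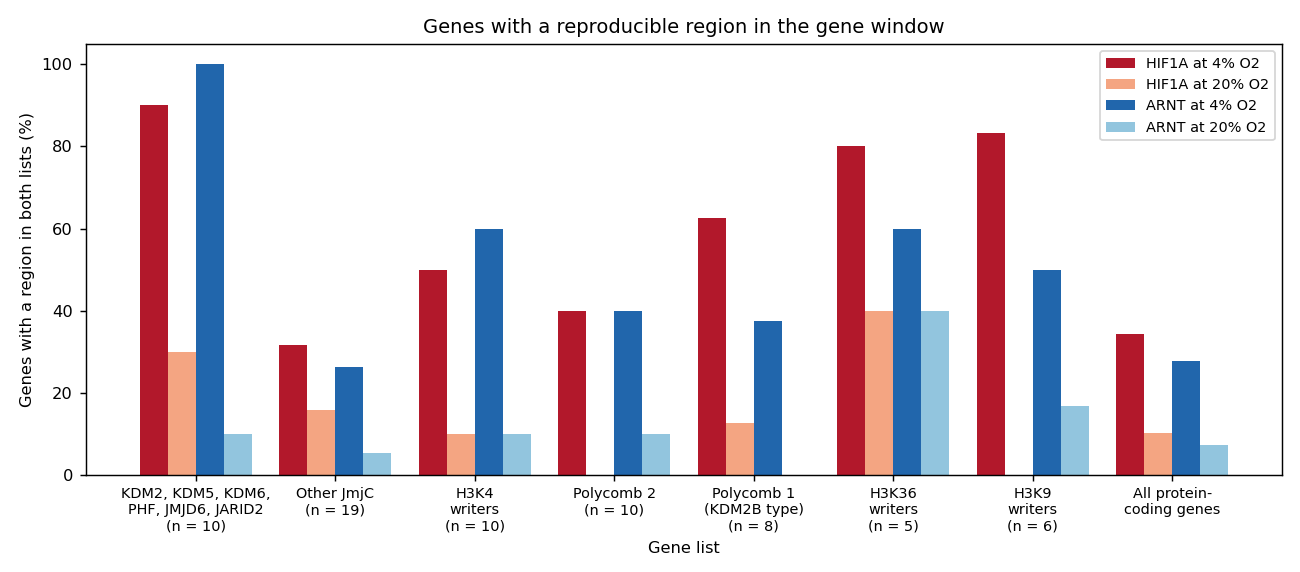
Share of genes (y axis, percent) with a peak region in both lists of a group, for the 10 genes, 6 other gene lists and all protein-coding genes; n is the number of genes. With the lists as deposited, the 10 genes reach 90% (HIF1A) and 100% (ARNT) at 4% O2. The other JmjC genes then lie at 31.6% and 26.3%, close to all genes at 34.2% and 27.7%.

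Likeness was measured as the Euclidean distance between the highest percentiles in the 8 lists, with 0 for no peak, for the 3 genes with the highest HIF1A percentiles at 4% O2. The nearest genes, at a distance of 0, were neighbours that share the same peaks: Dnah2 for Kdm6b, Mettl23 for Jmjd6 and Mgat4e for Kdm5b. Among genes with separate windows, a limit added after the data were seen, the nearest were Fance for Jmjd6 (distance 0.19 percentile points), Hey1 for Kdm5b (1.48) and Irf2bp2 for Kdm6b (9.85). These distances rest on 8 lists of 1 cell line.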

How the data were processed

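Peaks of 8 ChIP samples were used. The tools named are MACS2, BWA and Picard, with build mm10, per the submitters' processing notes. Their versions were not given in the sources used here. Per the series' design text, reads of 2 runs were combined for HIF1A replicate 2. The authors called each sample against 1 input and deposited a score per peak, used here only as a rank. Pandas 2.3.3 and numpy 2.4.6 were used. Peaks of 1 bp were widened by 100 bp each side to find regions, which needed an overlap of at least 1 bp. Peak counts used entries as deposited. The test was checked on simulated data in which each unchanged gene had the same mean in all 8 lists, so unequal list length was not covered. The gene rule took all 10 genes, up to 3 per other list by mean HIF1A percentile at 4% O2, 3 known targets, and the nearest gene for the 3 highest. All 71 list entries matched a gene. Members and lists were chosen with earlier results of these data known. Alternatives were other windows, overlaps, score limits and widths, single replicates and a replicate block.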

Additional observations from a re-analysis of the deposited data

How the results depend on the processing

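Counts at 20% O2 depended on single lists. Leaving out one replicate gave 9 (without replicate 1) or 3 (without replicate 2) of the 10 genes with HIF1A at 20% O2, against 31.8% or 11.3% of all genes, and 1 or 5 with ARNT at 20% O2, against 7.6% or 22.3%. At 4% O2 the counts were 9 or 10 for HIF1A (34.8% or 56.9% of all genes), 10 or 10 for ARNT (35.5% or 49.3%) and 9 or 10 co-bound (26.3% or 44.6%), so the background rose as well. HIF1A counts of other lists were 6 or 14 (other JmjC genes), 5 or 8 (H3K4 writers), 5 or 10 (Polycomb complex 2) and 5 or 8 (Polycomb complex 1). When each list was limited to its top 1808 peaks, 6 of the 10 genes had HIF1A at 4% O2 (6.65% of all genes), 5 ARNT at 4% O2 (5.41%), 1 HIF1A at 20% O2 (2.94%), 5 were co-bound (4.93%) and 6 had a region without a peak of that antibody at 20% O2 (5.9%). HIF1A counts of other lists were then 4 of 19 (other JmjC), 1 (H3K4), 0 (Polycomb complex 2), 0 (Polycomb complex 1), 2 (H3K36) and 0 (H3K9). A limit of 1 kb from either gene end was added after the data were seen. With it the 10 genes gave 5 for HIF1A (17.5% of all genes) and 6 for ARNT (15.2%) at 4% O2. At 20% O2 they gave 1 (2.02%) and 0 (3.05%). Co-bound genes were 5 (11.7%), and 6 had a region without a peak of that antibody at 20% O2 (15.7%). HIF1A counts of other lists at 4% O2 were 3 (other JmjC), 2 (H3K4), 3 (Polycomb complex 2), 2 (Polycomb complex 1), 2 (H3K36) and 2 (H3K9). At 4% O2 the gene span alone gave 6 of the 10 genes for HIF1A (23.9% of all genes), 7 for ARNT (18.4%) and 6 co-bound (15.3%). HIF1A counts of other lists were then 5 (other JmjC), 0 (H3K4), 3 (Polycomb complex 2), 3 (Polycomb complex 1), 1 (H3K36) and 3 (H3K9). The 5 kb window gave 8 of the 10 genes for HIF1A (30.1% of all genes), 9 for ARNT (24.3%) and 8 co-bound (19.9%). Its HIF1A count for Polycomb complex 1 was 3. The higher-scoring part of each list gave 9 of the 10 for HIF1A (22.6%), 7 for ARNT (15.9%) and 7 co-bound (14.0%). Its HIF1A counts were 3 for Polycomb complex 1 and 1 for H3K9. ARNT counts of these lists moved as well, for H3K4 from 6 to 1 with the gene span alone or 10 without replicate 2, and for Polycomb complex 1 from 3 to 7 without replicate 1 or 0 with the 1808 highest peaks. Differences in peak number reversed at Kdm2b (-0.50) and Kdm5a (-0.25) with the 1808 highest peaks, where Kdm7a and Phf2 were at 0 and Kdm6b at 1.25, and at Jarid2 (-0.50) without replicate 1, against 6.5 without replicate 2. Phf2 was also at 0 with the 5 kb window and with the gene span alone, which leave out its one site. The cause of the other changes was not tested. With a replicate block the median difference was 1.625 and the smallest exact permutation p was 0.125, reached by Kdm2b, Kdm6b and Phf2; no call changed. Deviations of same-numbered samples correlated at 0.615 for ARNT and -0.564 for HIF1A. Replicate 1 samples shared a lane, the ARNT replicate 2 samples did not, and the numbers were not taken as pairs. Depth is unknown, and a missing peak does not show absence of binding.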
